A study of Mus musculus with 2 samples.

Results

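The genes described here encode the nuclear pore complex and the nuclear lamina. Of the 31057 genes in the deposited files, 31 were taken: 11 named symbols (Tpr, Ndc1, Pom121, Seh1l, Sec13, Rae1, Aaas, Ranbp2, Lmna, Lmnb1 and Lmnb2) and 20 symbols that consist of Nup, a number and, in some, a closing letter. They were sorted by known place in the structure into 17 scaffold genes, 11 peripheral genes and 3 lamina genes. The older symbols Nupl1 and Nupl2, which stand for the pore genes Nup58 and Nup42, do not have that form and were not counted as members. The rule uses gene names alone and no measured value, but it was set with earlier results of these data known.

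The nuclear pore complex is the channel in the nuclear envelope through which RNA leaves and proteins enter the nucleus. A Y-shaped complex and an inner ring, held by membrane proteins, form its scaffold, while a central channel of flexible repeats, filaments on the cytoplasmic side and a basket on the nuclear side act in transport. The lamina beneath the inner nuclear membrane is a meshwork of A-type lamins, which are products of Lmna, and B-type lamins, which are products of Lmnb1 and Lmnb2. Scaffold proteins and lamins are known as stable proteins in cells that do not divide, a state in which oocytes remain for much of life.

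Ovaries were collected from female CD1 mice at postnatal day 2, when the reserve of primordial follicles has formed, to find which cell types express the genes of the study's long-lived proteins. Each of the 2 libraries pooled 6 ovaries from 3 pups of the same mother, dissociated with collagenase IV and Accumax. There was no treatment or genotype, and all comparisons are between cell types within these ovaries. Single-cell RNA was captured on the 10x Genomics Chromium system, which counts the 3′ end of each captured transcript once by a unique molecular identifier (UMI).

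Cells were assigned by marker genes, at a fixed minimum per cell, to germ cells (Ddx4, Dazl, Ooep), granulosa cells (Foxl2, Fst, Wnt6), interstitial cells (Col1a2, Dcn), mesothelial cells (Upk3b) or endothelial cells (Cdh5), and cells that met more than 1 of these criteria were left out. The libraries held 54471790 and 59074480 UMIs in 4094 and 4847 cells. Filters for cell quality and doublets left 3636 and 4371 cells. Of these, 3121 and 3155 entered exactly 1 gate, 431 and 1017 entered more and 84 and 199 entered none. The gates held 230 and 590 germ cells, 1642 and 567 granulosa cells, 1173 and 1939 interstitial cells, 18 and 33 mesothelial cells, and 58 and 26 endothelial cells, in replicates 1 and 2. The median germ cell held 77224 and 46779 UMIs, whereas the medians of the somatic gates lay between 4730 and 13607. Germ cell markers that the gate did not use (Zp3, Figla, Gdf9, Nobox, Sohlh1 and Sycp3) summed in the somatic gates to between 0.355% and 1.33% of their level in germ cells. Granulosa markers outside the gate criteria (Kitl, Wnt4, Amhr2, Inha and Amh) reached 34.4% and 38.9% of their granulosa level in mesothelial cells. This was the largest such share of any gate, and whether it came from mixed cells or from expression in mesothelial cells was not tested. Erythroid genes (Hba-a1, Hbb-bs and Alas2) stood apart in replicate 2, with 1979 counts per 1000000 UMIs (CPM) in interstitial and 879 in granulosa cells against 27.1 and 137 in replicate 1. The libraries shared 21 cell barcodes.

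Levels are given in CPM, with the UMIs of all genes in the cells of a gate as the total, first for replicate 1 and then for replicate 2. Because only 3′ ends are counted and not transcript length, levels were compared between cell types and not between genes. Tests used UMIs summed per library and gate (n = 2 libraries), so p-values measure the spread between these pooled libraries and not between single animals. A gene was called when its adjusted p, from edgeR's quasi-likelihood test with Benjamini-Hochberg adjustment over all genes tested, was under 0.05 and its change was over 2-fold. Fold changes are given on the log2 scale with their standard error (SE). The SE was derived from the test, as the size of the log2 fold change over the square root of the F statistic. All 31 genes had enough UMIs to be tested between cell types.

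The summed level of the 17 scaffold genes was 926 and 937 CPM in germ cells. It was 318 and 285 in granulosa cells, 523 and 422 in interstitial cells, 382 and 326 in mesothelial cells, and 367 and 462 in endothelial cells. Germ cells therefore lay above every somatic gate in both libraries. Granulosa cells were below every other gate, but this order was lost when every cell was thinned to 2000 UMIs, with 305 and 286 in granulosa cells, 250 and 288 in mesothelial cells (9 and 19 UMIs) and 259 and 289 in endothelial cells (30 and 15 UMIs). The 11 peripheral genes summed to 794 and 805 in germ cells and to between 423 and 523 in all somatic sums, which overlapped one another. The 3 lamina genes had another order, with 423 and 318 in interstitial cells and 423 and 368 in mesothelial cells, but 161 and 145 in germ cells and 166 and 118 in granulosa cells. Germ and granulosa cells overlapped in this sum, and the endothelial values of 309 and 200 lay between the groups. These sums are descriptions without a test and are dominated by the genes with the most UMIs.

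**Figure D1:**
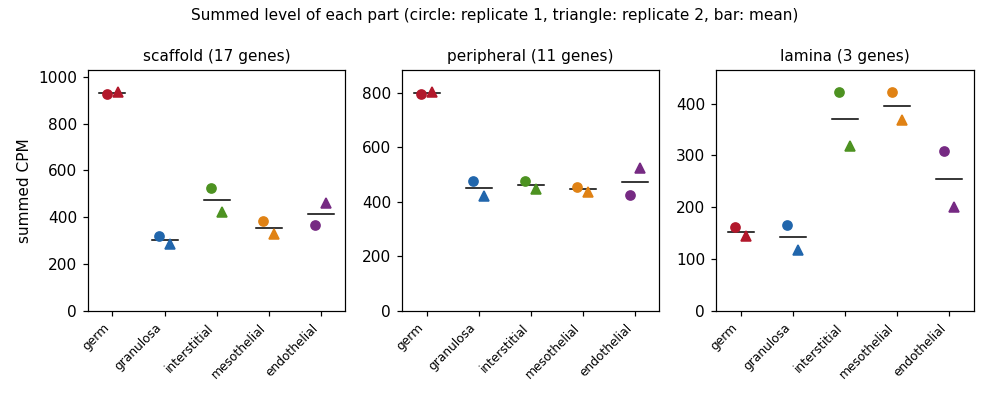
Summed CPM of the scaffold, peripheral and lamina genes (y axes, each from 0) in the 5 gated cell types (x axes). Circles are replicate 1, triangles replicate 2 and bars their mean, and the scaffold values of germ cells (926 and 937) lie above all somatic values while their lamina values (161 and 145) do not.

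Germ cells were compared with the mean of the log levels of the 4 somatic gates. Of the 31 genes, 13 were higher in germ cells (41.9%) and 2 were lower, and 16 were not called. Among all genes tested, 31.5% were called higher and 20.3% lower in the same comparison, beside 41.9% and 6.45% of the 31 genes, and the difference between these shares was not tested. The median log2 fold change of the 31 genes was 0.93, against 0.25 for all genes. With DESeq2 the same 15 genes were called, with a median of 0.83 against 0.06 for all genes. Over all genes, that tool called 4253 higher and 4292 lower (49.8% higher) in place of 4657 and 3002 (60.8% higher). Without a test, 15 genes lay above all 8 somatic sums in both germ sums and 5 lay below all of them, against 31% and 16.3% of all genes.

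**Figure D2:**
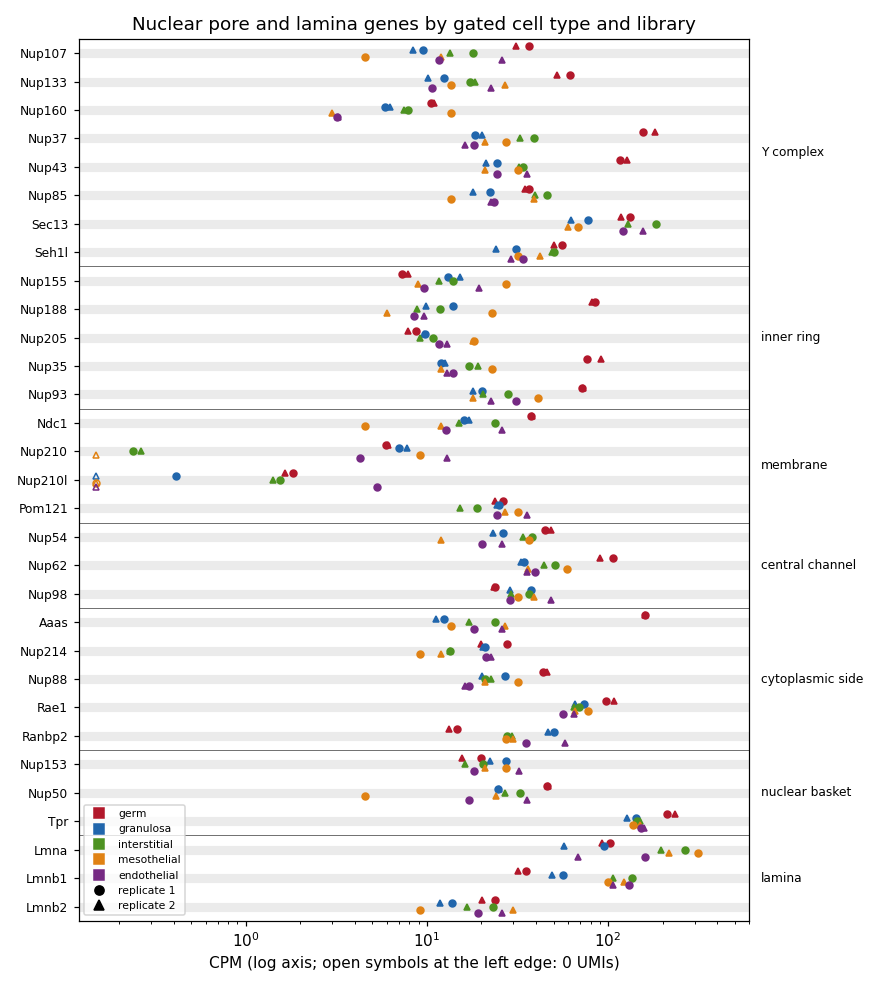
CPM (x axis, logarithmic) of each of the 31 genes (y axis) in every gate and library. Colours mark the cell type, circles replicate 1, triangles replicate 2 and open symbols at the left edge 0 UMIs, and red germ cell symbols stand apart to the right for genes such as Aaas (160 and 159) and Nup37 (157 and 182).

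In the scaffold, 9 of 17 genes were higher in germ cells and 0 lower, with 4 of 8 in the Y complex, 3 of 5 in the inner ring and 2 of 4 among the membrane proteins. Nup37 (ENSMUSG00000035351, chr10:88146992-88178390 in GRCm38, plus strand), a small Y complex subunit with WD repeats, had 157 and 182 CPM in germ cells. It had 18.4 and 20.0 in granulosa cells, 38.8 and 32.5 in interstitial cells, 27.3 and 20.9 in mesothelial cells, and 18.1 and 16.1 in endothelial cells. Every germ value was above every somatic value, and the log2 fold change was 2.95 (SE 0.14, adjusted p = 3.70e-10). Nup43 (ENSMUSG00000040034, chr10:7667503-7678881, plus strand), another WD repeat subunit of the Y complex, had 116 and 127 in germ cells against 20.9 to 35.5 in the 8 somatic sums (log2 fold change 2.23, SE 0.14, adjusted p = 4.08e-09). Nup133 (1.92) and Nup107 (1.56) were also higher. The remaining Y complex genes, Nup85, Nup160, Sec13 and Seh1l, were not called, with log2 fold changes from 0.41 to 0.97. Sec13, which also serves the coat of vesicles that leave the endoplasmic reticulum, had 131 and 118 in germ cells and 184 and 129 in interstitial cells, so that these cell types overlapped.

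Within the inner ring, members differed in direction. Nup188 (ENSMUSG00000052533, chr2:30286397-30344266, plus strand), a large scaffold protein of the ring, had 84.9 and 81.5 CPM in germ cells. Its somatic values ranged from 5.98 to 22.8, and both of these extremes were mesothelial sums of 2 and 5 UMIs. The log2 fold change was 3.0 (SE 0.20, adjusted p = 6.23e-09). Its partner in sequence and fold, Nup205, had 8.73 and 7.84 in germ cells, below all somatic values from 9.12 to 18.2, but was not called (log2 fold change -0.48, adjusted p = 0.0628). Nup35 (ENSMUSG00000026999, chr2:80617236-80658906, plus strand), which tethers the ring to the membrane, had 76.8 and 91.6 in germ cells against 12 to 22.8 in somatic cells (2.57, SE 0.16, adjusted p = 4.76e-09). Nup93, the linker of the ring, was higher by 1.62, and Nup155 was not called (-0.79, adjusted p = 0.0141) because its change stayed under 2-fold. Nup188 and Nup35 overlap another annotated gene on the same strand, Gm28038 and Dusp19, and how reads in the shared stretches were counted was not tested.

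Of the membrane genes, Ndc1, a transmembrane anchor of the pore, had 37.7 and 38.0 CPM in germ cells against 4.55 to 25.8 in somatic sums (log2 fold change 1.43, SE 0.22, adjusted p = 4.96e-05). Its lowest somatic values were mesothelial sums of 1 and 4 UMIs, while interstitial cells had 23.6 and 15.05 CPM and endothelial cells 12.8 and 25.8. The Ndc1 change lay between 1.09 and 1.77 over 20 alternatives. Nup210 was also called (1.26, SE 0.39, adjusted p = 0.0107), but its germ cell values of 5.92 and 6.12 were below its granulosa values of 6.98 and 7.73. Its call came from the mean over the somatic gates, in which interstitial cells held only 0.24 and 0.27, and was lost without replicate 2 of the germ cells (adjusted p = 0.0568) and without the mesothelial sum of replicate 2 (0.95, under 2-fold). Without the mesothelial sum of replicate 1 the value was 3.29, and with replicate 1 alone, which allows no test, it was 0.91. Pom121 was close to level between germ and somatic cells (0.12, SE 0.17, adjusted p = 0.573). Nup210l, the relative of Nup210, had 30 and 39 UMIs in germ cells and 0 in 4 of the somatic sums, and was not called (adjusted p = 0.189).

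In the peripheral group, 4 of 11 genes were higher in germ cells, namely Aaas, Nup62, Nup88 and Nup50, and 1 was lower. Aaas (ENSMUSG00000036678, chr15:102338252-102350771 in GRCm38, minus strand) encodes aladin, a WD repeat protein that is recruited to the pore by Ndc1. It had 160 and 159 CPM in germ cells, 12.5 and 11.2 in granulosa cells, 23.6 and 17.1 in interstitial cells, 13.7 and 26.9 in mesothelial cells, and 18.1 and 25.8 in endothelial cells. Its log2 fold change of 3.21 (SE 0.15, adjusted p = 2.82e-10) was the largest of the 31 genes and lay between 2.98 and 3.66 over all 20 alternatives tried. Nup62, the core of the central channel, had 107 and 90.1 in germ cells against 33.0 to 59.2 in somatic sums (1.33, SE 0.14, adjusted p = 7.40e-07). With every cell thinned to 2000 UMIs its change was 3.46 (adjusted p = 9.34e-07), on mesothelial sums of 0 UMIs in both libraries. It overlaps Il4i1 on the same strand. Nup88 (1.11) and the basket protein Nup50 (1.09) were only just past the 2-fold threshold. Nup88 fell under it in 4 of 20 alternatives (lowest 0.79), among them without the granulosa sum of replicate 2 (0.94), and Nup50 in 6 of 20 (lowest 0.83), among them without that sum (0.97), the mesothelial sum of replicate 1 (0.96) or the endothelial sum of replicate 1 (0.97).

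Ranbp2 (ENSMUSG00000003226, chr10:58446920-58494356, plus strand), the giant protein of the cytoplasmic filaments that binds Ran and carries SUMO ligase activity, went the other way. Germ cells had 14.7 and 13.2 CPM and every somatic sum had more, with 50.5 and 46.4 in granulosa cells, 27.8 and 29.6 in interstitial cells, 27.3 and 29.9 in mesothelial cells, and 35.1 and 58.1 in endothelial cells. The log2 fold change was -1.31 (SE 0.17, adjusted p = 9.54e-06). When every cell was thinned to 2000 UMIs, germ cells had 10 and 17 UMIs of Ranbp2 in all and the change was -0.64 (adjusted p = 0.247). The basket protein Tpr had 211 and 234 in germ cells against 127 to 158 in somatic sums, and Rae1, an mRNA export factor, had 96.8 and 108 against 56.4 to 77.4. Neither pair of ranges overlapped, but both changes were under 2-fold (log2 fold changes 0.69 and 0.70, adjusted p = 1.68e-04 and 2.43e-04).

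The lamins were not higher in germ cells. Lmnb1 (ENSMUSG00000024590, chr18:56707813-56753424, plus strand) had 35.4 and 31.6 CPM in germ cells, 56.5 and 48.8 in granulosa cells, 135 and 106 in interstitial cells, 100 and 123 in mesothelial cells, and 130 and 107 in endothelial cells. Germ cells were below all somatic sums, and the log2 fold change was -1.46 (SE 0.16, adjusted p = 1.47e-06). Lmna (ENSMUSG00000028063, chr3:88480147-88509956, minus strand), whose lamin A and lamin C transcripts the counts do not separate, had 102 and 92.9 in germ cells, 95.4 and 57.0 in granulosa cells, 265 and 195 in interstitial cells, 314 and 215 in mesothelial cells, and 160 and 67.8 in endothelial cells. Germ cells overlapped the granulosa and endothelial values, and the log2 fold change of -0.60 (SE 0.25, adjusted p = 0.0434) was under 2-fold. Lmnb2 (ENSMUSG00000062075, chr10:80901203-80918245, minus strand) had 23.6 and 20.1 in germ cells, 13.8 and 11.9 in granulosa cells, 23.3 and 16.6 in interstitial cells, 9.10 and 29.9 in mesothelial cells, and 19.2 and 25.8 in endothelial cells, and was not called (0.30, adjusted p = 0.229).

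These levels are shares of a cell's RNA, and germ cells held several times more UMIs per cell. Counted per cell, Lmnb1 had 2.52 and 1.27 UMIs in germ cells, 2.10 and 1.27 in endothelial cells, 1.22 and 1.24 in mesothelial cells, 0.968 and 0.617 in interstitial cells and 0.670 and 0.623 in granulosa cells. Germ and endothelial values overlapped, and the germ values were above those of the other 3 gates, though the lower germ value was only just above the mesothelial ones. Aaas had 11.4 and 6.39 UMIs per germ cell against 0.148 and 0.143 per granulosa cell. Ranbp2 had 1.048 and 0.5305 UMIs per germ cell, which overlapped the granulosa (0.5999 and 0.5926) and endothelial values (0.569 and 0.6923). They were above the interstitial (0.1995 and 0.1723) and mesothelial values (0.3333 and 0.303). Lower Lmnb1 and Ranbp2 in germ cells therefore hold for the share of RNA and not for the number of UMIs per cell.

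**Figure D3:**
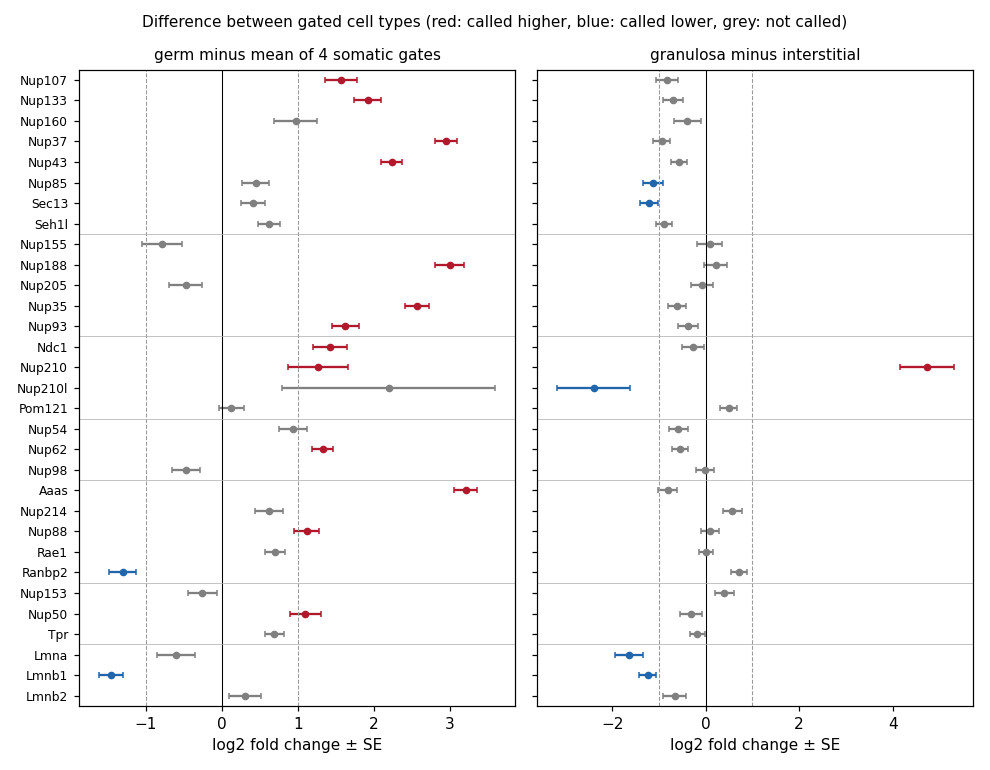
Log2 fold change with its standard error (x axes) of each of the 31 genes (y axis) for germ cells against the mean of 4 somatic gates (left) and granulosa against interstitial cells (right). Red points were called higher, blue lower and grey not called, dashed lines mark 2-fold, and Nup210 stands apart on the right at 4.73.

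Germ cells with at least 10000 UMIs were split by Zp3, a zona pellucida gene of growing oocytes, at 5 UMIs per 10000, which gave 156 and 198 cells above and 55 and 196 cells below. The scaffold sum was 925 and 947 CPM in the higher cells and 931 and 924 in the lower cells, so it overlapped. Single genes differed more than their sum, and none of these differences was tested. Those named here were picked after their values were seen, and the share of all genes with such differences was not counted. The median cell held 85670 and 70463 UMIs in the higher cells and 59856 and 53030 in the lower cells, and the part of this depth was not tested. Nup188 had 89.9 and 89.5 against 64.3 and 71.8, and Nup214, a repeat protein of the cytoplasmic side, had 31.2 and 22.7 against 12.6 and 15.5. Rae1 had 90.3 and 93.3 against 124 and 129, and Lmnb1 had 31.9 and 27.3 against 49.5 and 37.0, so both were at lower levels in the cells with more Zp3.

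The RefSeq table of the GRCm38.p6 assembly held promoters for 25 of the 31 genes. No fixed rule chose the promoters shown from the genes called higher in germ cells and, as given further on, in dividing somatic cells. The 250 bases before the RefSeq transcript start are shown for 3 of these genes. They are written 5′ to 3′ on the strand of the gene, with motif matches in capitals: CCGGAAG (bound by ETS factors) in Aaas, at chr15:102350760-102351009 on the minus strand; the same motif with TTTGAA (the cell cycle homology region) on both strands and CCAAT in Nup37, at chr10:88146742-88146991 on the plus strand; and CCAAT on both strands with the NRF1 site, which is GCGCA followed directly by its reverse complement, in Nup62, at chr7:44815838-44816087 on the plus strand.
Aaas: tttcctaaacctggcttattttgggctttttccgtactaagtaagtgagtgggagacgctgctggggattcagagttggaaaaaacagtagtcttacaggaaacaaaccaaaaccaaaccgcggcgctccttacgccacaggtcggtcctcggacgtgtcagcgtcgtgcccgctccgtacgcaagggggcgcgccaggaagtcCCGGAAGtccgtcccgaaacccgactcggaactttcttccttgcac
Nup37: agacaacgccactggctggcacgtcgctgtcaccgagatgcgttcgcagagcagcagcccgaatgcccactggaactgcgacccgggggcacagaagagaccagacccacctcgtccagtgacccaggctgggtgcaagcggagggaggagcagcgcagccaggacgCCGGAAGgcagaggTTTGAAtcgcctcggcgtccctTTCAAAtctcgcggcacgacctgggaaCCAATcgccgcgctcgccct
Nup62: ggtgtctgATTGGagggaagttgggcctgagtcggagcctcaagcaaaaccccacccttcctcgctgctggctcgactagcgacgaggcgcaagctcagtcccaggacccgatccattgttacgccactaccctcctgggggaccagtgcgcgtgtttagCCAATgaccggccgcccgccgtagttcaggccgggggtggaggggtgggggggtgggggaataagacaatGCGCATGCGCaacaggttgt

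Both strands were searched, and no motif overlapped another in these 3 promoters. Nup37 has 2 starts in the table, of which the first was used. Of the other genes called higher in both comparisons, Ndc1 held only TTTGAA, Nup107 held the NRF1 site and CCGGAAG, and Nup35 had no promoter in the table. RefSeq and GENCODE starts differed for some genes. The Ndc1 window (chr4:107367797-107368046, plus strand) lay wholly inside the GENCODE gene, which starts at 107367784, so the bases before that start were not searched. The Aaas window reached into its GENCODE gene, which begins at 102350771 on the minus strand. Starts of promoters not given here were not compared. Of the 13 genes higher in germ cells, 11 had a promoter in the table. This NRF1 site was in 3 of these 11 (Nup107, Nup50 and Nup62) and in 0.781% of all 27025 promoters, and CCGGAAG was in 3 (Aaas, Nup107 and Nup37) and in 7.05% of all. CCAAT was in 5 of the 11 against 34.5% of all promoters, and TTTGAA in 2 against 16.3%. The E2F motifs TTTGGCGC and TTTCGCGC were in 0 of the 11 and in 0.673% of all. Among all 25 genes with a promoter, called or not, CCGGAAG was in 6, TTTGAA in 6, CCAAT in 9, this NRF1 site in 3 and the E2F motifs in 0. CCGGAAG was also in Nup155, Nup54 and Sec13, which were not called higher in germ cells. These matches describe the letters in the window and were not tested for use in the ovary.

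Granulosa cells, which surround the oocyte, were next compared with interstitial cells, the mesenchymal cells between follicles. Of the 31 genes, 1 was higher in granulosa cells and 5 were lower, against a background of 14.9% higher and 12.9% lower among all genes. The median log2 fold change was -0.39, against 0.01 for all genes, and 0 of the 8 Y complex genes and 0 of the 3 lamins had a positive value. In the peripheral group, 0 of 11 genes were called.

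Nup210 (ENSMUSG00000030091, chr6:91013068-91116829, minus strand), a transmembrane protein of the pore known for its tissue-restricted expression, had 6.98 and 7.73 CPM in granulosa cells (136 and 56 UMIs) and 0.24 and 0.27 in interstitial cells (2 and 3 UMIs). The granulosa level was 29.4 times the interstitial level in replicate 1, with exact 95% bounds of 7.98 and 245, and 29.1 times in the other library, with bounds of 9.47 and 146, which cover counting error only. The fitted log2 fold change was 4.73 (SE 0.58, adjusted p = 1.46e-05). Germ cells held Nup210 at 5.92 and 6.12 and endothelial cells at 4.26 and 12.9 (4 UMIs in each library). Interstitial values were therefore below all germ, granulosa and endothelial values, while the mesothelial sums of 2 and 0 UMIs were too small to place, the 0 allowing up to 8.98 CPM.

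Lmna was lower in granulosa than in interstitial cells, with 95.4 and 57.0 against 265 and 195 CPM and no overlap (log2 fold change -1.64, SE 0.30, adjusted p = 5.64e-04). Lmnb1 was lower as well, with 56.5 and 48.8 against 135 and 106 (-1.24, SE 0.18, adjusted p = 7.78e-05). Lmnb2 had 13.8 and 11.9 against 23.3 and 16.6, under 2-fold (-0.66, adjusted p = 0.0384). Sec13 (-1.21, SE 0.19, adjusted p = 1.51e-04) and the Y complex gene Nup85 (-1.13, SE 0.21, adjusted p = 5.43e-04) were lower too, although Sec13 fell under 2-fold without the interstitial sum of replicate 1 (-0.93) and Nup85 without the granulosa sum of replicate 2 (-0.99). With thinned cells Lmnb1 (-0.95) and Nup85 (-0.82) were under 2-fold, and Nup210 and Nup210l had too few UMIs to be tested. Nup210l was called at -2.40 (adjusted p = 0.0257) on few UMIs, 8 and 0 in granulosa cells against 13 and 16 in interstitial cells. The 0 allows up to 0.414 CPM, and leaving out a granulosa or interstitial sum ended this call in 3 of 4 cases, with adjusted p of up to 0.0922.

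A larger share of interstitial than of granulosa cells was counted as cycling. Cells with at least 2000 UMIs were thinned to 2000, and those with UMIs of at least 2 of 10 mitotic genes were counted as cycling, which were 22.3% and 17.8% of interstitial and 9.52% and 11.2% of granulosa cells. When cycling cells were left out, a comparison chosen after the data were seen, Lmna (-1.53, adjusted p = 0.00133), Sec13 (-1.23, adjusted p = 0.00169) and Nup210 (5.21, adjusted p = 1.32e-04) were still called. Lmnb1 then changed by -0.94 (adjusted p = 8.42e-04) and Nup85 by -0.96 (adjusted p = 0.00176), both under 2-fold. Lmnb2 moved from -0.66 to 0.35 (adjusted p = 0.236).

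Cycling cells were compared with the other cells of the same 2 gates, in 156 and 63 cycling granulosa cells and 260 and 332 cycling interstitial cells. The members are not among the 10 genes that defined the cycling cells. Of 30 genes tested (Nup210l had too few UMIs), 9 were higher in cycling cells and 0 were lower, against 4.37% higher and 1.7% lower among all genes. All 30 had a positive log2 fold change, also with DESeq2 and without TMM scaling, and their median was 0.76 against -0.07 for all genes. The called genes were 2 of 3 lamins, 5 of 16 scaffold genes and 2 of 11 peripheral genes.

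The B-type lamins had the largest differences. Lmnb1 had 307 and 271 CPM in cycling interstitial cells against 66.0 and 55.0 in the others, and 199 and 184 in cycling granulosa cells against 34.8 and 30.0. Its log2 fold change was 2.40 (SE 0.11, adjusted p = 2.59e-07). Lmnb2 had 56.7 and 49.1 against 9.64 and 6.54 in interstitial cells and 31.6 and 27.3 against 11.1 and 9.75 in granulosa cells (2.11, SE 0.16, adjusted p = 1.05e-05). Lmna was not called, with 309 and 242 against 247 and 181 in interstitial cells and 91.1 and 57.0 against 96.1 and 57.1 in granulosa cells (0.17, SE 0.20, adjusted p = 0.621). Its ranges overlapped in both gates. Within each library its level was higher in cycling than in other interstitial cells, but not in granulosa cells.

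Among the pore genes, Nup37 had 73.4 and 60.8 CPM in cycling interstitial cells against 25.1 and 23.6 in the others, and 49.5 and 44.4 against 13.7 and 16.7 in granulosa cells. The log2 fold change was 1.55 (SE 0.13, adjusted p = 2.27e-05). Ndc1 followed with 1.51 (SE 0.19, adjusted p = 5.17e-04), with 43.0 and 32.1 against 15.8 and 9.92 in interstitial cells and 41.3 and 31.9 against 12.1 and 15.1 in granulosa cells. Nup35, Nup107, Aaas, Nup205 and Nup62 lay between 1.16 and 1.24. Of these, Nup107 fell under 2-fold in 2 of 16 alternatives (lowest 0.96), among them without the cycling granulosa sum of replicate 1 (0.98). These 7 genes were picked by their calls in the same sums, so the separation of their values adds no support. In each gate both cycling values were above both other values, and the share of all genes with such a separation was not counted. This comparison and that of germ cells share the granulosa and interstitial cells, and their values stand side by side only as levels: Aaas reached 40.9 and 27.2 in cycling interstitial cells against 160 and 159 in germ cells, and Nup37 reached 73.4 and 60.8 against 157 and 182. The summed level of the 10 mitotic genes was 3247 and 3507 in germ cells against 1168 and 1029 in interstitial cells and 485 and 443 in granulosa cells, and its part in the germ cell differences was not tested.

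**Figure D4:**
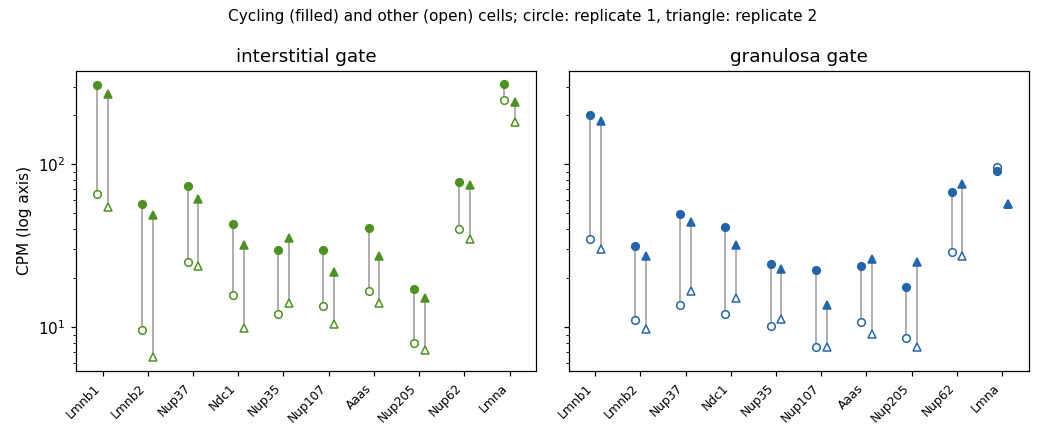
CPM (y axes, logarithmic) of the 9 genes called higher in cycling cells and of Lmna in interstitial (left) and granulosa cells (right). Filled symbols are cycling and open symbols other cells, circles replicate 1 and triangles replicate 2, and lines join values of the same library, which are far apart for Lmnb1 (307 and 66.0 in interstitial cells of replicate 1) and close for Lmna.

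The cycling effect was also compared between the 2 gates. By edgeR and by DESeq2, 0 of 30 genes were called, with 2 at an unadjusted p under 0.05 in each, against 0% higher and 0.032% lower among all genes. Lmnb2 had the largest positive difference (1.15 more in interstitial cells, SE 0.32), with an adjusted p of 0.291. Over all genes the calls were 0 higher and 4 lower with edgeR and 33 higher and 16 lower with DESeq2. They were 57 and 28 with the library added to the edgeR fit as a block, and 184 and 83 with no filter on low counts.

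Mesothelial and endothelial cells were each compared with the mean of granulosa and interstitial cells. In mesothelial cells, 0 of 31 genes were called by edgeR, with 2 at an unadjusted p under 0.05, against 3.9% higher and 2.61% lower among all genes, while DESeq2 called Lmna alone (1 gene). The edgeR values were 0.91 for Lmna (SE 0.30, adjusted p = 0.0859) and -0.79 for Sec13 (SE 0.26, adjusted p = 0.0829). A single UMI stands for 4.55 CPM in the mesothelial sum of replicate 1, so small differences were not detectable at this depth. Over all genes, DESeq2 called 907 higher and 287 lower (76.0% higher) in place of 580 and 387 (60.0% higher) with edgeR.

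When cells that met several criteria were given to the gate they passed by the largest margin, the mesothelial gate held 142 and 226 cells. Pom121, a membrane anchor of the pore, then had 49.7 and 34.2 CPM, above granulosa cells (25.5 and 25.4) and interstitial cells (18.4 and 15.9), and was called higher (log2 fold change 1.04, SE 0.17, adjusted p = 0.00259). Nup210 was called as well (1.67, SE 0.43, adjusted p = 0.0232). Its mesothelial values of 5.61 and 2.757 CPM (14 and 10 UMIs) were, however, below its granulosa values of 6.945 and 7.493. The call came from the mean of both types, in which interstitial cells held only 0.1913 and 0.2472. Over all 15123 genes tested in this setting, 1221 were called higher and 863 lower, and the members were not tested against that share. Cells of this wider gate also met granulosa or interstitial criteria, and the part of that overlap was not tested.

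In endothelial cells, 1 of 31 genes was higher and 0 were lower, against 8.67% higher and 9.41% lower among all genes. The called gene was Nup210 (2.29, SE 0.73, adjusted p = 0.0359), which rested on 4 UMIs in each library and was lost when either endothelial sum (adjusted p up to 0.248), either interstitial sum or the granulosa sum of replicate 1 was left out. The endothelial Nup210 values of 4.26 and 12.9 CPM lay on both sides of the granulosa values (6.98 and 7.73), and only the interstitial values (0.24 and 0.27) were below both. Lmnb1 had 130 and 107 CPM against 56.5 and 48.8 in granulosa cells and 135 and 106 in interstitial cells, a change under 2-fold (0.62, SE 0.18, adjusted p = 0.0240). Lmna had 160 and 67.8 in the endothelial libraries, in which perivascular markers (Rgs5, Cspg4 and Notch3) summed to 28.8 and 255, and their part in this spread was not tested.

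Other genes of the nuclear envelope and of nuclear transport were counted from fixed lists. Of 21 envelope genes, 3 were higher and 5 lower in germ cells, and of 35 transport genes 8 were higher and 6 lower, against 31.5% higher and 20.3% lower among all genes, so the share of higher genes was below the background in both lists. The lower envelope genes included Nrm (nurim, -3.78), with 1.65 and 2.11 CPM in germ cells against 9.10 to 61.4 in somatic sums, Sun2 (-1.93) and Syne2 (-1.86), which link the nucleus to the cytoskeleton, and Tmpo (-1.65), which encodes lamina-associated polypeptides. The 3 higher envelope genes were Tor1a (1.776), Banf1 (1.458) and Ankle2 (1.346). The 6 lower transport genes were Kpna1 (-1.582), Ipo9 (-1.501), Xpo4 (-1.45), Ipo7 (-1.285), Kpna4 (-1.125) and Nxf1 (-1.106), so importins went both ways. The higher transport genes included the importins Kpna7 and Kpna2. Kpna7 had 23.4 and 19.1 CPM in germ cells (384 and 453 UMIs) and 0 to 4 UMIs in each somatic sum, and Kpna2 had 161 and 131 against 10.1 to 31.9 (log2 fold change 2.85). Ddx19b, an mRNA export helicase, was called with 11.1 and 7.04 in germ cells against 6.57 and 5.11 in granulosa cells, and its fitted value rested on mesothelial and endothelial sums of 0 and 1 UMIs. The adjusted p of the called genes of both lists was at most 2.89e-04.

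Between granulosa and interstitial cells, 1 envelope gene was higher (Syne2, 1.16) and 3 were lower, namely Lbr, the lamin B receptor (-1.84), Tmpo (-1.45) and Nrm (-1.08), and 1 transport gene was higher (Kpna6, 1.06), against 14.9% higher and 12.9% lower among all genes. In mesothelial cells 1 envelope gene was lower (Tor1aip1, -1.28, adjusted p = 0.0470) and 0 transport genes were called, against 3.9% and 2.61%. The Tor1aip1 call rested on 4 and 10 mesothelial UMIs (18.2 and 29.9 CPM), with an adjusted p just under the threshold. In endothelial cells Lbr (1.42) and Sun2 (1.33) were higher and Syne2 was lower (-1.61), and Ipo11 was higher (3.52, adjusted p = 7.79e-09), with 203 and 152 CPM against 13.4 to 19.5 in granulosa and interstitial cells. Lbr had 50.05 and 54.9 CPM in endothelial cells against 41.8 and 31.3 in interstitial and 10.6 and 10.5 in granulosa cells. Its call came from the mean of both types, in which granulosa cells were low. Sun2 rested on 17 and 10 endothelial UMIs and Syne2 on 41 and 8. Among all genes, 8.67% were higher and 9.41% lower in endothelial cells. In cycling cells 4 of 21 envelope genes (Sun2, Tmpo, Nrm and Lbr) and 7 of 34 transport genes were higher and 0 were lower, against 4.37% and 1.7% among all genes. Kpna2 (3.66), Rangap1 (2.29) and Rcc1 (1.76), a carrier and regulators of the Ran cycle, had the largest changes among the transport genes.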

How the data were processed

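The authors deposited unnormalized UMI counts per gene and cell for barcodes called as cells, made with Cell Ranger 3.0.2 against GRCm38 per the submitters' processing notes. The labels name version 2 of the reagent kit and the methods version 3, and the counts do not settle which was used. A filter of 500 or more genes per cell and no more than 10% of counts from mitochondrial genes left 3738 and 4464 cells. Scrublet in scanpy 1.11.5 marked 102 and 93 doublets at the score threshold of replicate 1 (0.224), applied to both libraries after the scores were seen because the own threshold of replicate 2 (0.519) marked 2 cells. A gate needed at least 2 marker UMIs and 3 (germ), 2 (granulosa), 5 (interstitial) or 1 (mesothelial, endothelial) per 10000 UMIs.

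Counts were summed per library and gate, giving 10 sums between cell types and 8 for cycling. The fits used filterByExpr, TMM scaling, glmQLFit and glmQLFTest of edgeR 4.0.16 under R 4.3.3. The scripts were tested on simulated data. DESeq2 1.42.0, other scalings, filters, gates, thinning and leaving out sums were alternatives. Background shares leave out gate and mitotic genes. The members and lists were chosen with earlier results of these data known. Full values are given for all lamins, for the 5 largest called changes in each direction in germ cells and for the 3 largest elsewhere, and other genes by counts and ranges, except those named beside them, such as the Zp3 split, which were chosen after their values were seen. Positions come from GENCODE by Ensembl identifier and promoters from RefSeq. Cell types of a library share animals and a run: over 14781 genes, the correlation of library differences from one cell type to another was 0.0128 to 0.284. Blocking on library was tried as an alternative.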

Additional observations from a re-analysis of the deposited data

How the results depend on the processing

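Of the 31 genes, the 13 called higher in germ cells became 21 and the 2 lower became 5 with no fold threshold, and 1 was lower when every cell was thinned to 2000 UMIs. Over all 10413 genes tested with thinning, 3059 were higher and 1624 lower in germ cells, and 1271 and 1207 in granulosa against interstitial cells. The counts with no fold threshold, here and below, were not set beside counts over all genes and are no result about the members. For granulosa against interstitial cells, the 1 higher became 0 with thinning, where that gene, Nup210, had too few UMIs to be tested, and 3 with no fold threshold, and the 5 lower became 2 with thinning, 2 without cycling cells (an alternative chosen after seeing the data) and 15 with no fold threshold. The mesothelial gate grew from 18 and 33 cells to 60 and 88 when all gate thresholds were doubled. In mesothelial cells 1 gene was higher with DESeq2, 1 with all gate thresholds doubled and 2 in the wider gate. Over all genes, these settings called 907 of 14781, 1081 of 14983 and 1221 of 15123 higher in mesothelial cells, and no filter on low counts called 1474 of 22293 higher in endothelial cells. In endothelial cells 2 were higher with no filter on low counts and 2 with no fold threshold, and in cycling cells 19 were higher with no fold threshold. Thinning moved the mean scaffold sum from 931 to 908 in germ, from 354 to 269 in mesothelial and from 415 to 274 in endothelial cells, which left granulosa cells no longer the lowest, and the peripheral sum from 799 to 781 in germ and from 446 to 341 in mesothelial cells. Thinned mesothelial and endothelial sums hold at most 116000 UMIs, and beyond that the cause was not tested. Leaving out single sums or a whole replicate (the latter a count past 2-fold with no test) gave 11 to 15 higher and 2 to 3 lower genes in germ cells, 1 higher and 3 to 7 lower in granulosa cells, 0 to 2 higher and 0 to 5 lower in mesothelial cells, 0 to 2 higher and 0 to 2 lower in endothelial cells, 9 to 13 higher and 0 lower in cycling cells, and 0 to 2 higher and 0 to 1 lower for the difference of the cycling effect. The 3 lower genes in granulosa cells arose without interstitial replicate 1 and without granulosa replicate 2, and the 0 higher in endothelial cells without either endothelial or either interstitial sum. Where a sum was left out, the lone sum was assumed to vary like the others. Without a whole replicate, far more of all genes also passed 2-fold as lower in mesothelial and endothelial cells. These ranges were not set against the share of all genes and are no result about the members. With the replicate block, which adds the library to the fit, the counts of the 31 genes were those of the fit without it in every comparison (13 higher and 2 lower in germ cells), while over all genes the calls for the difference of the cycling effect went from 0 higher and 4 lower to 57 and 28. Across alternatives, single called genes kept their side of the thresholds in 554 of 585 cases, lost it in 31 and turned direction in 0. Without a whole replicate only the 2-fold threshold applied, and settings in which a gene could not be tested were not counted. The alternatives reuse the same cells and are not independent of one another.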
